A study of Mus musculus with 9 samples.

Results

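The cytosolic ribosomal protein genes encode the proteins of the large (Rpl) and small (Rps) subunits of the cytoplasmic ribosome, and they were followed here in hearts of 7-day-old mice with and without Arid1a. A gene was included when its symbol began with Rpl or Rps and a digit and it was annotated as protein coding, with the Rps6k kinases left out and Rps3a1, Rps3a3, Rpsa, Rplp0, Rplp1 and Rplp2 added. In the GENCODE M21 annotation 93 genes met this rule, and 92 of them matched one of the 38293 rows of the count table (Rpl24 was not analysed here). Of the 92, 56 carried large-subunit and 36 small-subunit symbols. The letter of the rule also took in Rps19bp1, which is not a ribosomal protein, and 8 symbols of copies (names ending in -ps and a number, Rps27rt and Rps3a3), and Rps3a3 itself was annotated as a processed pseudogene.

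RNA of heart ventricles was sequenced at postnatal day 7 in 5 control and 4 Arid1a cKO libraries. Control animals were littermates carrying Arid1a f/f, the conditional allele, without Cre. The cKO animals carried the same Arid1a f/f alleles together with αMHC-Cre, in which the promoter of a cardiomyocyte myosin gene drives the recombinase, so fibroblasts, endothelial cells and blood cells of a cKO ventricle keep the gene. The comparison asks which transcripts of the neonatal heart depend on Arid1a, which belongs to the SWI/SNF complexes that reposition nucleosomes.

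Each ribosome holds a single copy of nearly every ribosomal protein, and cells keep the messages of these genes at similar, high levels. Most of the messages begin with a run of pyrimidines, the 5′ TOP element, through which mTOR signaling sets their translation. A few proteins have a paralogue with restricted expression, of which Rpl3l, the striated muscle counterpart of Rpl3, is the best known in heart. Ribosomal protein genes have also left many processed copies in the mouse genome, so short reads from one gene can fit several places.

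Library totals ranged from 31011055 to 40073801 counts. Arid1a was lower in all 4 cKO libraries (100 to 113 CPM, counts scaled to a library of 1000000) than in all 5 control libraries (128 to 148 CPM), with a log2 fold change of -0.39 ± 0.06 (SE) and an adjusted p of 0.00132 in edgeR's quasi-likelihood test (-0.33 and 0.0822 among the 5 libraries of the low set defined below). The markers of cardiomyocytes summed to 49969 to 58774 CPM in control and 45180 to 50290 CPM in cKO libraries, and 1 of the 8 markers was lower at an adjusted p under 0.05. Those of fibroblasts summed to 5588 to 6902 and 6762 to 8020 CPM, with 3 of 7 higher. Of 6 endothelial markers 1 was lower, and of 21 tested macrophage, erythroid, mural and lymphocyte markers 0 passed in edgeR, 2 had an unadjusted p under 0.05 and 1 passed in DESeq2. Fewer cardiomyocytes and less of these messages per cardiomyocyte cannot be told apart in ventricle RNA. The study counts its libraries as separate hearts, and p-values measure the spread between them. 2 properties also varied among the libraries of each genotype, and the first was unevenly spread over the genotypes. The pseudogene Rps3a3 stood below 1 CPM in control replicates 1 and 2 and cKO replicates 1 to 3 (the low set) and near 100 CPM in control replicates 3 to 5 and cKO replicate 4 (the high set), and counts followed the GC content of the transcript differently from library to library, most in cKO replicate 2.

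Among the tested members, Rps3a3, which defines the sets, and Rps3a1 had the largest log2 differences between the sets. Their sequences are therefore shown first. Rps3a1, which encodes a small-subunit protein, lies at chr3:86137940-86142702 on the minus strand of mm10, and Rps3a3 lies at chr13:108670603-108671397 on the plus strand as a single exon. Over the 795 bases of the Rps3a1 coding sequence the 2 genes differed at 9 positions and were 98.87% identical. Counted from the first base of the start codon, with the Rps3a1 base first, the differences were T216C, T260C, C363T, A427T, T534C, G582T, A660G, C762T and G792A. Coding bases 178 to 297 and 335 to 454 are given below from GENCODE M21 transcripts, 5′ to 3′, with differing bases in capitals. In Rps3a3 these stretches are chr13:108670780-108670899 and chr13:108670937-108671056.
Rps3a1, bases 178 to 297: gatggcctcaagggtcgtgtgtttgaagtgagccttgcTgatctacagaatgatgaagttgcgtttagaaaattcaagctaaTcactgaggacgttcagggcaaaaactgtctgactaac
Rps3a3, bases 178 to 297: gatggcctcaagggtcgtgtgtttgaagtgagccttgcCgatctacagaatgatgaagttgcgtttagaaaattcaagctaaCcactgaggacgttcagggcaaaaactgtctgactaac
Rps3a1, bases 335 to 454: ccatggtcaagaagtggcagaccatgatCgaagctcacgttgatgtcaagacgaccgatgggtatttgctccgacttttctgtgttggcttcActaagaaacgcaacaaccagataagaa
Rps3a3, bases 335 to 454: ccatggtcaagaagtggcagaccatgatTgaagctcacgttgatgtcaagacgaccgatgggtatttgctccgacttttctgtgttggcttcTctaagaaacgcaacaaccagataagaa
A read of 75 bases, the length the study used, spans a differing base from most positions. Of the 721 windows of 75 bases in the Rps3a1 coding sequence, 231 (32%) occurred unchanged in Rps3a3. Over the whole Rps3a1 transcript, 60.2% of 903 such windows occurred in some other annotated gene.

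The start of the message was compared next, because the rule did not use it. RefSeq promoter windows of GRCm38.p6 held 65 of the members. The letters CTTTC, a pyrimidine run with a cytosine, lay between 10 bases before and 20 bases after an annotated start in 16 of these (24.6%) and in 1197 of all 27025 genes with a window (4.43%). On the opposite strand the same letters were found in 3 members (4.62%) and in 4.31% of all genes. Windows of 3 members that recur below are shown 5′ to 3′ with CTTTC in capitals. They cover chr2:39005112-39005141 on the minus strand for Rpl35, chr11:114668570-114668599 on the plus strand for Rpl38 and chr17:24727816-24727845 on the plus strand for Rpl3l.
Rpl35: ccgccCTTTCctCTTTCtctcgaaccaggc
Rpl38: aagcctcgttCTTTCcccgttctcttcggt
Rpl3l: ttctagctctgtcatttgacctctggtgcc
The letters occur at the starts of Rpl35 and Rpl38 and are not in this window of Rpl3l.

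Of the 92 genes, 86 passed the filter on low counts and were tested among 15318 genes. The other 6 were Rpl10l and Rpl36-ps4, which had no count in any library, and Rpl36a-ps1, Rpl39l, Rpl9-ps1 and Rps12-ps3. On a scale of CPM per kilobase of transcript, the 5 highest members were Rps29 (468), Rps15 (453), Rpl4 (440), Rplp1 (424) and Rps27 (417). The members together took 1.34% ± 0.05 (SD, n = 5) of all counts in control and 1.45% ± 0.11 (SD, n = 4) in cKO libraries. Their summed level was 13590 ± 540 CPM (SD) in control and 14232 ± 976 CPM (SD) in cKO hearts, and the cKO mean was 13755 CPM without cKO replicate 2.

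Arid1a loss was accompanied by a clear difference in 1 ribosomal protein gene, Rpl3l, which was lower in cKO hearts. It was the only member of the 86 called at an adjusted p under 0.05 and over 1.5-fold, where 6.72% of all genes tested were called. With no limit on fold, 1 member was higher (Rpl35; 8.25% of all genes) and 1 was lower (Rpl3l; 8.03% of all genes). At an unadjusted p under 0.05 there were 8 of 86 members, against 29.7% of all genes. The median log2 fold change was 0.05 over the members and 0.01 over all genes, and 57 of 86 members lay above 0. Large-subunit members had a median of 0.05 (33 of 51 above 0) and small-subunit members of 0.07 (24 of 35 above 0). Libraries of the genotypes did not overlap for 2 of 86 members, Rpl3l and Rps27l, against 16.7% of all genes. The log2 fold change and 2 SE either side stayed within 1.5-fold for 76 of the 84 tested members other than Rps3a1 and Rps3a3. Beyond Rpl3l, the intervals that reached further were those of Rpl36, Rplp1, Rplp2, Rps29 and 3 copies, Rpl10-ps3, Rpl9-ps6 and Rps27rt.

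**Figure D1:**
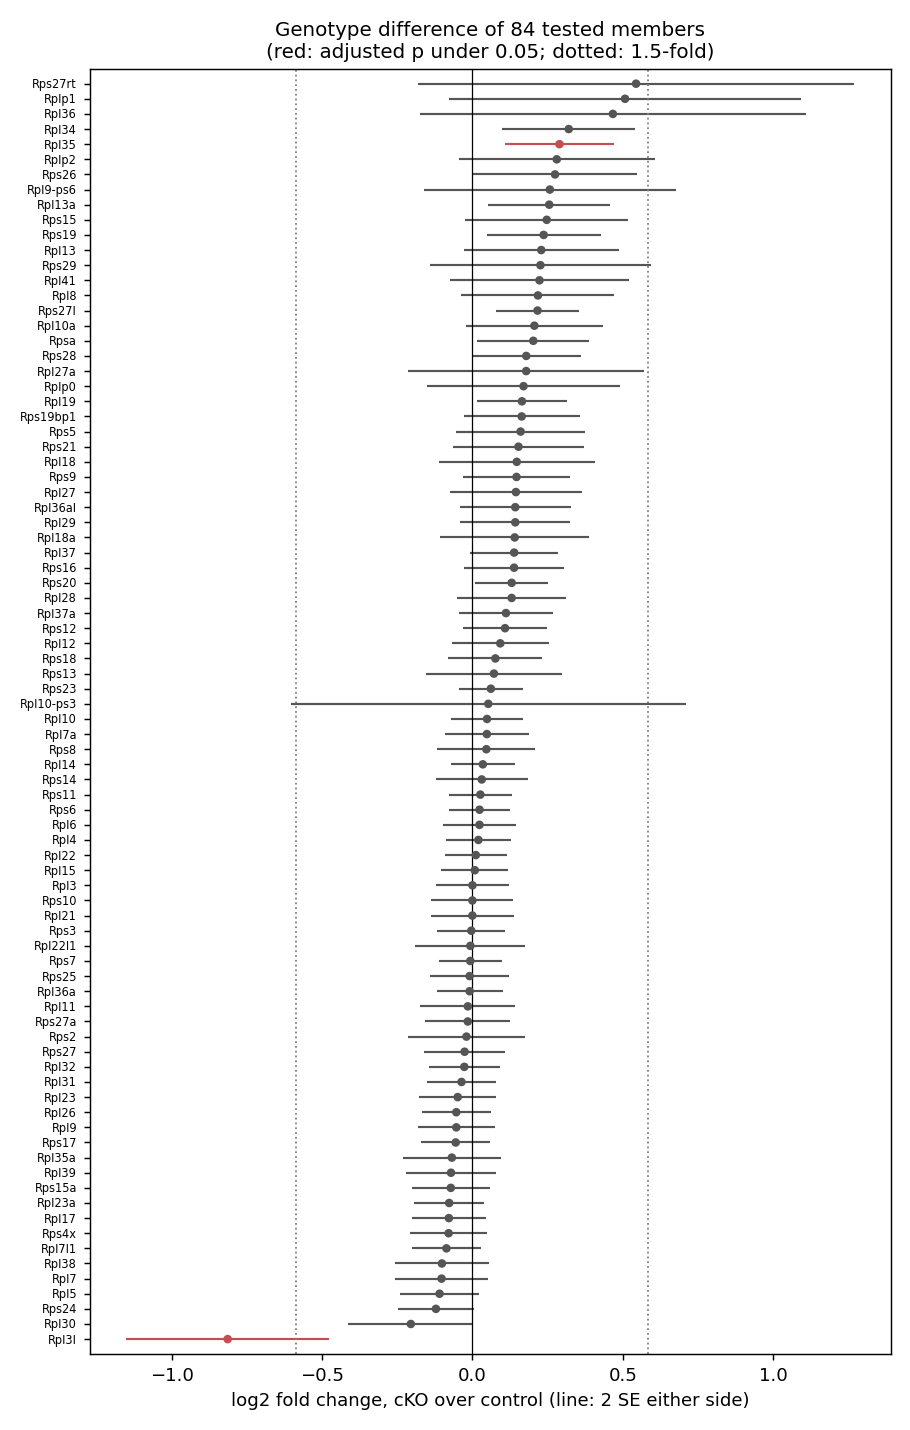
Log2 fold change of cKO over control (x axis) for 84 tested members (y axis), ordered by size, with lines of 2 SE either side, dotted lines at 1.5-fold and red for an adjusted p under 0.05. Rpl3l at -0.81 stands below the other members, and the others lie between -0.20 and 0.55.

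Rpl3l at chr17:24727820-24736143 encodes the ribosomal protein that takes the place of Rpl3 in striated muscle. Its level in control replicates 1 to 5 was 17.5, 19.5, 12.4, 17.5 and 11.7 CPM. In cKO replicates 1 to 4 it was 9.11, 9.97, 9.76 and 6.92 CPM. Every cKO library was below every control library. The means were 15.7 ± 3.44 (SD, n = 5) and 8.94 ± 1.39 CPM (SD, n = 4). The log2 fold change was -0.81 ± 0.17 (SE) with an adjusted p of 0.00634 (edgeR). Within the low set alone the log2 fold change was -0.94 with an adjusted p of 0.00598, and without cKO replicate 2 it was -0.87 with an adjusted p of 0.0118 (edgeR). The cardiomyocyte marker sum given above also had a lower range in cKO libraries, and its part in the Rpl3l difference was not tested.

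Rpl3, the ubiquitous paralogue with a coding sequence 74.1% identical to that of Rpl3l, was far more abundant and lay between 291 and 320 CPM in control and between 281 and 327 CPM in cKO libraries. The groups overlapped throughout, with means of 305 ± 13.0 and 305 ± 18.5 CPM (SD). The log2 fold change was 0.00 ± 0.06 (SE) with an adjusted p of 0.996 (edgeR). No window of 75 bases in Rpl3l occurred in another annotated gene, while 83.2% of those in Rpl3 did.

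**Figure D2:**
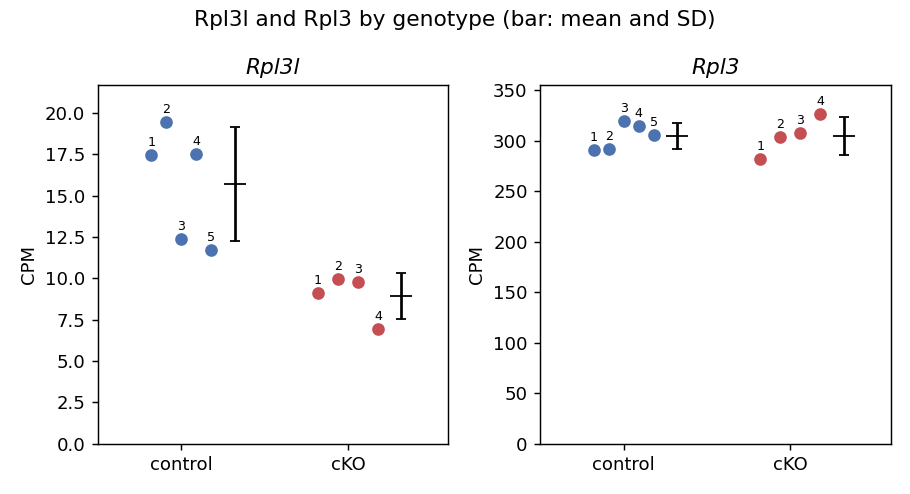
CPM (y axis, from 0) of Rpl3l and Rpl3 in each control and cKO library (points, numbered by replicate) with the mean and SD of the group. The 4 cKO values of Rpl3l, 6.92 to 9.97, lie below all control values, while those of Rpl3 overlap.

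The other paralogue pairs did not pass the test. Rps27l, a p53-inducible relative of Rps27, came closest and was 66.9, 60.1, 68.6, 65.7 and 57.3 CPM in control and 78.0, 74.9, 73.0 and 70.5 CPM in cKO replicates. The 2 groups did not overlap, with means of 63.7 ± 4.79 and 74.1 ± 3.16 CPM (SD), a log2 fold change of 0.22 ± 0.07 (SE) and an adjusted p of 0.0521 (edgeR). Its partner Rps27 averaged 145 ± 4.69 in control and 142 ± 13.2 CPM in cKO hearts. For Rpl22 and Rpl22l1 the log2 fold changes were 0.01 and -0.01, and for Rpl36a and Rpl36al they were -0.01 and 0.14. For Rpl7 and Rpl7l1 the log2 fold changes were -0.10 and -0.09, and Rpl39 was at -0.07 while Rpl39l was not tested. Rpl10 was at 0.05, and its testis-enriched relative Rpl10l had no count. Of the 75-base windows of Rps27 98.5% occurred in another annotated gene, and of those of Rpl10 84.9% did. The X-linked Rps4x was at -0.08, and its transcribed pseudogene Rps4l, no member of the set, was at 0.20 (adjusted p = 0.702, edgeR).

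Rpl35, a large-subunit protein beside the exit tunnel, was the only member that was higher at the threshold. Control replicates 1 to 5 had 53.9, 53.4, 48.3, 47.7 and 44.3 CPM and cKO replicates 1 to 4 had 52.6, 70.4, 59.0 and 60.3 CPM. cKO replicate 1 lay within the control range, and the other 3 lay above it. The log2 fold change was 0.29 ± 0.09 (SE) with an adjusted p of 0.0472 (edgeR). The change was under 1.5-fold. It stayed under the adjusted p threshold without control replicate 1 (adjusted p = 0.0394, edgeR) or cKO replicate 1 (adjusted p = 0.0216, edgeR). It missed the threshold when any of the remaining 7 libraries was left out, with adjusted p from 0.0501 to 0.133 (edgeR), with the set as a term (adjusted p = 0.0662, edgeR) and within the low set (adjusted p = 0.548, edgeR).

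Rpl34, another large-subunit protein, was at 147, 139, 104, 105 and 103 CPM in control and at 151, 153, 148 and 144 CPM in cKO replicates. Control replicates 3 to 5 were low, while control replicates 1 and 2 were near or within the cKO range. The log2 fold change was 0.32 ± 0.11 (SE) and the adjusted p was 0.0707 (edgeR). Its 3 low libraries all belong to the high set, while cKO replicate 4 of that set was not low, and with the set as a term the log2 fold change was 0.23 and the adjusted p 0.0401 (edgeR). Within the low set alone it was 0.08 with an adjusted p of 0.687 (edgeR), so the value with the set term rests on cKO replicate 4, the only cKO library of the high set.

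The stalk proteins Rplp0, Rplp1 and Rplp2, which bind translation factors at the large subunit, are abundant members. Rplp1 was 255, 208, 146, 135 and 147 CPM in control and 185, 410, 203 and 215 CPM in cKO replicates. cKO replicate 2 alone stood above all others, and the remaining cKO libraries lay within the control range. The log2 fold change of 0.51 ± 0.29 (SE) fell to 0.17 without that library, and neither passed the test (adjusted p = 0.291 and 0.680, edgeR). For Rplp2 the values were 0.28 and 0.11, and for Rplp0 they were 0.17 and 0.02.

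**Figure D3:**
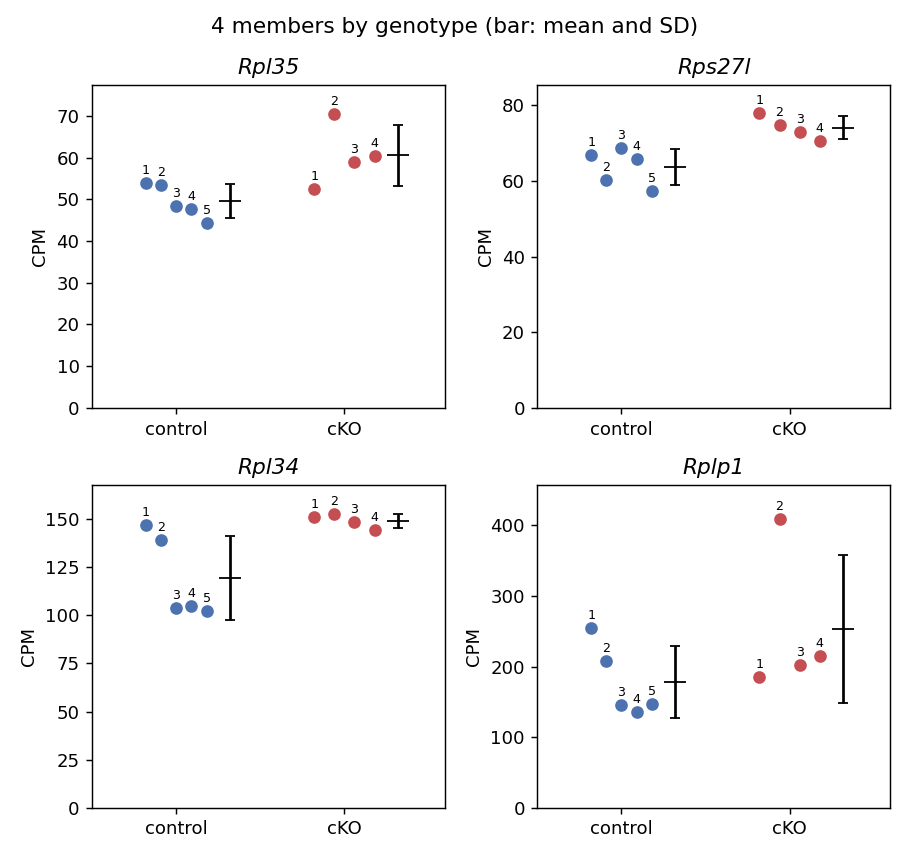
CPM (y axis, from 0) of Rpl35, Rps27l, Rpl34 and Rplp1 in each control and cKO library (points, numbered by replicate) with the mean and SD of the group. The 4 cKO values of Rps27l lie above all control values, control replicates 3 to 5 are low for Rpl34, and cKO replicate 2 at 410 CPM is high for Rplp1.

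cKO replicate 2 was the highest of the 9 libraries for 46 of 86 members, and the median member stood 0.17 (log2) above the mean of the other libraries there. Rpl36, the tested member with the highest GC content at 60.8%, was 111 CPM in that library and 33.3 to 73.8 CPM in the others. Rpl27a was 65.3 CPM there and 32.3 to 41.2 CPM elsewhere. Across the 86 members the log2 ratio of cKO replicate 2 to the other libraries had a Spearman rho of 0.521 with GC content. In all genes tested, the rho of a library's deviation with GC content was 0.526 in cKO replicate 2, 0.417 in control replicate 1 and -0.491 in control replicate 4. At a split of 54% GC chosen after seeing the data, 20 of 25 members at or above it and 37 of 61 below it had a log2 fold change above 0. The erythroid marker sum was also highest in cKO replicate 2 (1136 CPM, against 483 to 930 CPM in control libraries), and its part in the member values was not tested.

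With the GC trend of each library removed, an alternative chosen after seeing the data, Rpl3l was at -0.88 with an adjusted p of 0.00163 (edgeR), and 4 of the 8 cardiomyocyte markers were lower and 1 was higher (3 lower with the library set as a term in place of the trend). That fit called 1 of 86 members, against 7.23% of all genes. In it 4 members were higher, Rpl35, Rps27l, Rps19 and Rpl34, against 11.1% of all genes. They rose by 0.21, 0.26, 0.15 and 0.29 on the log2 scale. The 2 lower members were Rpl3l and Rpl38 (log2 fold change -0.22, adjusted p = 0.0251, edgeR), against 12.5% of all genes. The median member was then at 0.06. Without cKO replicate 2 and with the trend removed, 1 member was higher (8.23% of all genes) and 1 was lower and called (9.28% and 6.18% of all genes). They were Rpl35 (0.19, adjusted p = 0.0383, edgeR) and Rpl3l (-0.88, adjusted p = 0.00754, edgeR).

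**Figure D4:**
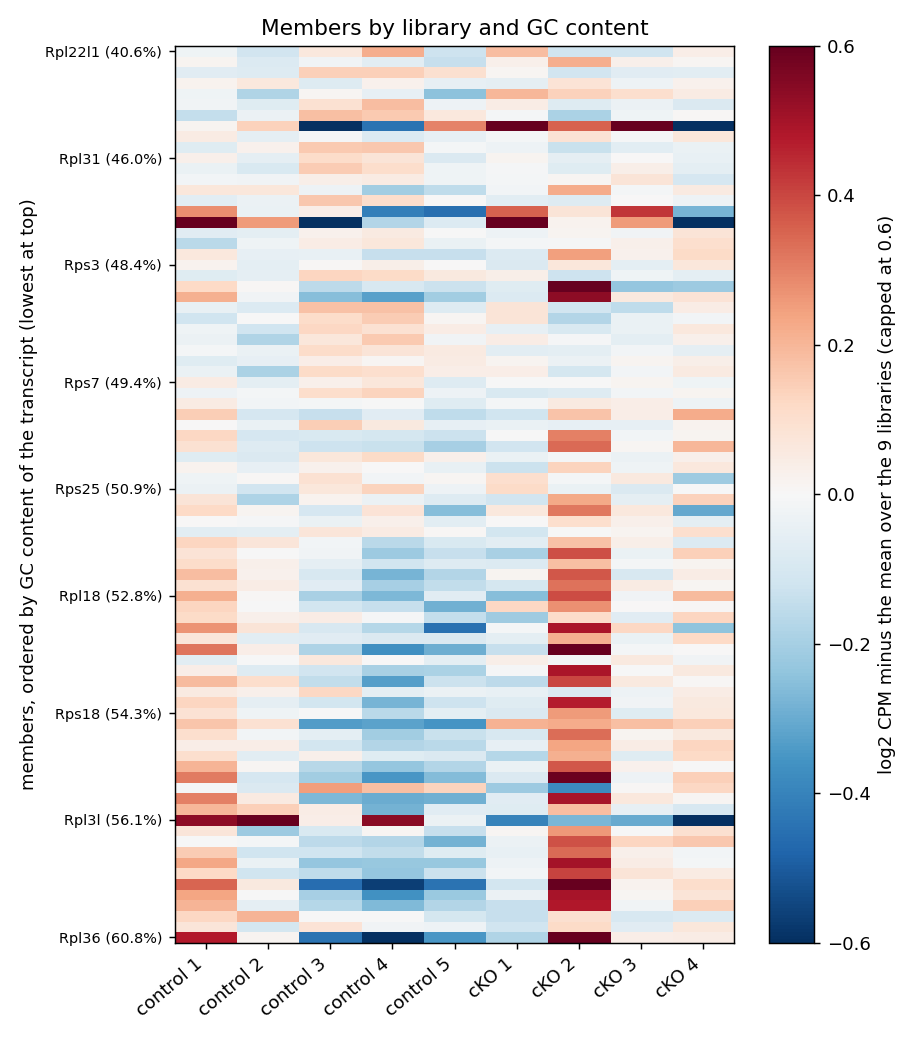
Log2 CPM minus the mean over the 9 libraries (color, capped at 0.6) for 84 tested members other than Rps3a1 and Rps3a3 (rows, from lowest GC content of the transcript at the top to highest at the bottom) in each library (columns). In cKO replicate 2 and control replicate 1 many rows with high GC content are above their means, with Rpl30 among the exceptions, and in control replicates 3 to 5 many of them are below.

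The other split ran between the low and the high set, which Rps3a3 defines, so its values are a description. Rps3a3 was 0.51 and 0.52 CPM in control replicates 1 and 2 and 0.50, 0.34 and 0.49 CPM in cKO replicates 1 to 3. In control replicates 3 to 5 it was 112, 108 and 110 CPM and in cKO replicate 4 it was 99.7 CPM. Rps3a1 went the other way, with 253, 258, 276, 258 and 264 CPM in the low set and 72.9, 73.8, 75.7 and 70.8 CPM in the high set. The sum of both genes was 254 to 276 CPM in the low and 171 to 185 CPM in the high set, so the sum was also lower in the high set. Rps3a3 made up 0.13% to 0.20% of that sum in the low set and 58.5% to 60.6% in the high set. The genotype fold changes of Rps3a1 (0.57 ± 0.61 SE, adjusted p = 0.591, edgeR) and Rps3a3 (-1.38 ± 2.07 SE, adjusted p = 0.708, edgeR) rest on how the sets fall in the genotypes. With the set as a term Rps3a1 was at 0.01 (adjusted p = 0.911, edgeR), and no such fit is given for Rps3a3, which defines the term. A sum of 10 interferon-response genes, chosen after values were seen, was 311 to 1545 CPM in the low and 97.6 to 118 CPM in the high set. The 6 macrophage markers summed to 120 to 157 CPM in the low and 82.8 to 103 CPM in the high set, and 4 of them did not overlap, all lower in the high set. Of 6 erythroid markers 2 were lower without overlap, with sums of 734 to 1136 and 483 to 819 CPM. No marker of cardiomyocytes, fibroblasts, endothelium, mural cells or lymphocytes was apart in this way, though 4 of 6 lymphocyte markers averaged under 1 CPM. The part of the interferon-response, macrophage and erythroid genes in the set differences was not tested.

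**Figure D5:**
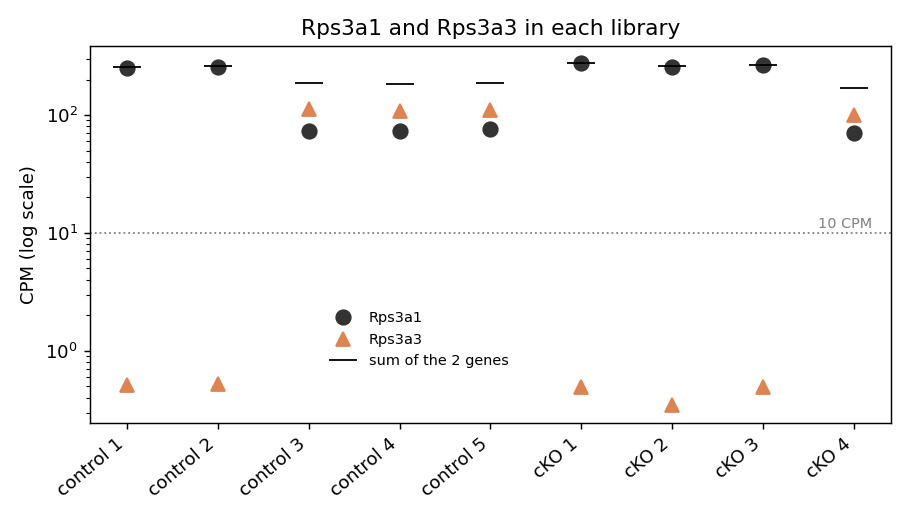
CPM (y axis, log scale) of Rps3a1 (circles), Rps3a3 (triangles) and their sum (bars) in each library (x axis), with a dotted line at the 10 CPM that separates the sets. Rps3a3 lies under 1 CPM in 5 libraries and at 99.7 to 112 CPM in 4, where Rps3a1 is at 70.8 to 75.7 CPM.

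With Rps3a3 left aside because it defines the sets (its log2 difference of high over low was 7.77), 2 of the other 85 tested members (2.35%) were apart between the sets, that is without overlap and over 1.5-fold after adjustment for genotype, and 2.23% of all genes were. They were Rps3a1 (log2 difference -1.83) and Rpl10-ps3 (-0.89). Rpl10-ps3, a copy of Rpl10, averaged 1.29 ± 0.24 CPM in the low and 0.75 ± 0.19 CPM in the high set (SD). Without a limit on fold, 8 of the 85 (9.41%) did not overlap, against 8.02% of all genes. Both shares are near those of all genes. The other 6 were Rpl30, Rpl32, Rpl7, Rpl9 and Rps27a, which were higher in the high set by 0.12 to 0.26 (log2), and Rplp0, which was lower by a log2 difference of -0.43. When the counts of near-identical copies were added to their members, Rps3a3 and Rpl10-ps3 were merged into Rps3a1 and Rpl10, and 0 of 82 members were apart and over 1.5-fold. The sum of Rps3a1 and Rps3a3 still did not overlap between the sets and lay just inside that limit, with a log2 ratio of the set means of -0.54. Without cKO replicate 4, the only cKO library of the high set, 4 members other than Rps3a3 were apart, against 3.46% of all genes.

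For 76 of the 92 members another annotated gene was at least 90% identical over at least 50% of the shorter transcript, and these 702 copies took 2.03% of the counts of members and copies. Of the copies apart between the sets, Rps3a3 aside, 15 were lower and 2 were higher in the high set. Copies at low counts that passed the filter through 1 set had to differ, so no share of them is given. Rps16-ps2 was 8.92 CPM in the low and 5.80 CPM in the high set. Rps15a-ps8 was 10.7 CPM in the low and 19.2 CPM in the high set. Rps13-ps2 was 2.66 CPM in the low and 0.82 CPM in the high set, while all 6 copies of Rps13 together were higher in 3 libraries of the high set, with 2.02 to 3.13 CPM in the low set and 24.0, 1.57, 20.02 and 42.1 CPM in control replicates 3 to 5 and cKO replicate 4. Rps3a2, a copy 99.5% identical to Rps3a1, was 0.53 CPM in the low and 0.02 CPM in the high set. Rps13 itself averaged 128 ± 10.8 in the low and 107 ± 13.2 CPM in the high set (SD) and was lowest in control replicate 5 (98.6 CPM) and cKO replicate 4 (95.1 CPM). The same 2 libraries had the lowest Rplp0 (314 and 362 CPM). In them its copy Gm8730 was at 15.0 and 20.4 CPM, against 0.47 to 1.22 CPM in the other 7 libraries, and all 5 copies of Rplp0 together were at 24.8 and 33.9 CPM, against 2.27 to 3.95 CPM.

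Genes around the ribosome were read beside the members, from lists of translation factors with TOP messages, ribosome biogenesis, and regulators. Rack1, a scaffold protein on the small subunit, was at a log2 fold change of 0.12 and Fau, the precursor of a small-subunit protein, at 0.27, and neither passed the test (adjusted p = 0.258 and 0.367, edgeR). The shares of all genes, 8.25% higher and 8.03% lower, apply to each list. Among 28 translation factors 3 were higher and 2 were lower. Eif3h, a subunit of initiation factor eIF3, rose by 0.21 on the log2 scale (adjusted p = 0.0113, edgeR), and Pabpc1, the cytoplasmic poly(A)-binding protein, by 0.24 (adjusted p = 0.0422, edgeR). Eif4a2, an initiation helicase, fell by 0.31 (adjusted p = 0.0340, edgeR). Of 74 ribosome biogenesis genes 4 were higher and 2 were lower, both below the share of all genes, with a median log2 fold change of 0.07. Rrp12, needed for export of both subunits, rose by 0.75, from 16.1 ± 1.64 to 27.1 ± 5.87 CPM (SD; adjusted p = 0.00250, edgeR). Nhp2, a protein of H/ACA snoRNPs, rose by 0.49 (adjusted p = 0.0303, edgeR), and Polr1e, a subunit of RNA polymerase I, fell by 0.45 (adjusted p = 0.00211, edgeR). Of 11 regulators, 1 passed. It was Myc, an activator of ribosome biogenesis, which rose by 0.61, from 7.46 ± 1.26 to 11.4 ± 1.36 CPM (SD; adjusted p = 0.0109, edgeR). None of Pabpc1, Eif4a2 and Nhp2 changed by over 1.5-fold, and they no longer passed the adjusted p threshold without cKO replicate 2 (adjusted p = 0.0523, 0.0910 and 0.0898, edgeR). The same held without cKO replicate 3 or 4 or control replicate 3 or 5, for Nhp2 also without control replicate 2 or 4, for Eif4a2 without control replicate 4, and for Pabpc1 without control replicate 1 or 2. Over these the adjusted p ranged from 0.0523 to 0.127 (edgeR). In the low set alone the adjusted p of the 7 genes lay between 0.0783 and 0.568 (edgeR). Of 76 tested mitochondrial ribosomal protein genes, 6 were higher and 2 were lower, with a median of 0.03.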

How the data were processed

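Polyadenylated RNA of P7 ventricles (TruSeq stranded mRNA, single-end reads of 75 bases) was sequenced in 5 control and 4 cKO libraries. The authors deposited raw read counts per gene, and the submitters' processing notes name STAR 2.4.2a, HTSeq 0.6.1 and mm10. The annotation release, the strand setting and the treatment of reads with several matches are not given in the sources used here. Identifiers were matched to GENCODE M21.

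Counts were tested with edgeR 4.0.16 (R 4.3.3): filterByExpr with a minimum count of 10, TMM scaling, quasi-likelihood F test on genotype, two-sided, with Benjamini-Hochberg adjustment across 15318 genes. Calls required an adjusted p under 0.05 and a change over 1.5-fold. CPM are counts scaled by TMM to a library of 1000000. DESeq2 1.42.0 was an alternative. Copies were found with BLAST+ 2.17.0 over at least 100 aligned bases. Removing a GC trend from each library, and leaving out cKO replicate 2 or adding the library set or the replicate number to that fit, were chosen after seeing the data. The library sets were defined by Rps3a3, so no test was run between them.

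Genes named were the paralogue pairs, called members, up to 5 members in each direction at an adjusted p under 0.05, the 5 highest per kilobase, members apart between the sets, up to 3 genes per other list, and Arid1a. Rpl34, Rps19, Rpl38, the stalk proteins, Rpl36, Rpl27a, Rps13 and the copies were named after their values were seen. Rack1, Fau, Rpl30, Rpl32, Rpl9 and Rps27a were also named outside these rules. The members and lists were chosen with earlier results of these data known. The study's methods and the labels differ on the number of control libraries, and the 5 in the labels were used. A list of other ribosome components is not reported here as a whole.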

Additional observations from a re-analysis of the deposited data

Results flagged for a closer look

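4 values stood far from the other libraries of their group among 44 groups examined, where chance flags about 1 in 20. Rpl36al was 24.0 CPM in control replicate 1 and 19.5 to 20.6 CPM in the other controls. Rpl7 was 308 CPM (307.86) in cKO replicate 2 and 345 to 353 CPM in the other cKO libraries. Rps3a1 was 70.8 CPM in cKO replicate 4 and 258 to 276 CPM in the other cKO libraries, and Rps3a3 was 99.7 CPM (99.745) there and 0.34 to 0.50 CPM in the others. The last pair is the split between the low and the high set within the cKO group.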

How the results depend on the processing

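Rpl3l remained the 1 called member under each of the 25 alternatives, with a log2 fold change from -0.99 to -0.71. The count of higher members (1) was 3 with DESeq2 (9.25% of all genes in the same fit), 2 with upper-quartile scaling (8.64%) or a mean of at least 1 CPM (9.05%), and 0 with no filter on low counts (4.76%), with library totals (log2) in the model (5.90%), with a length trend removed (7.99%) or in the low set alone (2.57%). It was 0 to 3 with 1 library left out (5.97% to 8.73%). The count of lower members (1) was 2 with the GC trend removed, and higher members were then 4, and the same counts, 2 and 4, came with the library set added (13.6% and 13.0% of all genes). The median member was 0.02 to 0.08 with 1 library left out and -0.01 with a length trend removed. The count apart between the sets (3, with Rps3a3, which defines them) was 3 to 5 with 1 library left out and 0 with copies summed, where Rps3a3 and Rpl10-ps3 are merged into other members by construction. Other causes were not tested. Rps27l passed under 5 alternatives, DESeq2 among them (adjusted p = 0.0274). Of 748 refitted values for 30 named genes, 692 stayed on their side of the threshold, 51 no longer passed and 5 newly passed. Genes that did not pass could change sign, such as Rpl3 (log2 fold change -0.03 to 0.04). The 51 all fell on genes that passed in the main fit, with 13 for Rpl35, 11 for Nhp2 and 10 each for Eif4a2 and Pabpc1. Rpl34, Rps19 and Rpl38, named after their values were seen and not in that tally, passed in 7, 3 and 3 fits.

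Same-numbered libraries did not deviate together (correlations 0.02, 0.04, 0.01 and 0.23, and 0 of 4 cKO libraries were closest to the control of their own number), so the numbers were not taken as pairs. With the replicate number as a block, 0 members were higher (5.71% of all genes) and 1 was lower (5.58%), and with the GC trend also removed 2 were higher (8.11%) and 3 were lower (9.08%).

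The median SE of a member's log2 fold change was 0.08. How reads with several matches were counted limits members with near-identical copies.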
